A study of Mus musculus with 6 samples.

Results

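Cultured Th17 cells were compared between late days (days 12 and 18 after activation) and early days (days 2 and 4), 4 of the 6 samples of a time course measured on Illumina bead arrays. The late days were set against the early days, and the spread between the 2 days of a pair served as the yardstick of every difference. Of 28869 gene names on the array, the 11275 detected (detection p-value below 0.01) on at least 1 of the 4 arrays entered the comparison, after all 6 arrays had been normalized together. Both groups were CD4+ T cells from 6-week-old mice of a strain named RAG1- BW TRP-1 TCR. Such mice carry a transgenic T cell receptor for the melanocyte protein TRP-1 and lack RAG1, which is needed to assemble other antigen receptors. The cells of all 4 samples had been activated with TRP-1 peptide and are named Th17 cells in the labels. Day 7 Th17 cells and unactivated day 0 CD4+ T cells took part only in the normalization and as points of comparison. Each day was 1 sample, and neither the culture medium, the added cytokines, nor whether the days came from 1 culture is given in the sources used here.

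T helper 17 cells are effector CD4+ T cells that secrete IL-17A, IL-17F, IL-21 and IL-22 and recruit neutrophils to epithelia. The state is known to be plastic: such cells can lose IL-17 and take up the interferon-gamma, chemokine receptor and cytotoxic genes of type 1 cells. T cells kept in culture after 1 activation also leave the first burst of growth and division, in which they use glycolysis and take up IL-2.

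The 4 arrays fell into 2 pairs. Across the tested genes, log2 signals correlated with r = 0.977 between days 12 and 18 and with r = 0.976 between days 2 and 4, while r between a late and an early day was 0.887 to 0.936. The SD of the difference over genes was 0.474 for day 18 minus day 12, 0.483 for day 4 minus day 2 and 0.873 for late minus early. A difference of at least 2-fold was found for 4.28% of genes between days 12 and 18, for 4.97% between days 2 and 4 and for 13.8% between the pair means. Of the 1558 genes with a late minus early difference of at least 2-fold, 1399 had a difference wider than both of their within-pair differences and 159 did not. Genes were compared with limma, which sets each gene's difference against its own within-pair spread (2 residual degrees of freedom, with 3.28 prior degrees of freedom borrowed from all genes), and passed the test at an adjusted p below 0.05. Higher signals at days 12 and 18 were called for 592 genes (5.25% of those tested) and lower signals for 454 genes (4.03%). Days of a pair are not replicates, so these p-values measure the difference only against a spread that also holds real change between days. An exact permutation test of 2 arrays against 2 cannot give a two-sided p below 0.333.

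A second count used no variance estimate. A gene was separated where its dimmer array of one pair was at least 2-fold above the brighter array of the other, with undetected values raised to the lowest detected signal of their array. In this way 403 genes were separated higher late (3.57%) and 315 lower late (2.79%), of which 379 and 280 were also called. The median size was 1.55 (log2) for genes called higher and 1.75 for genes called lower, and at least 8-fold differences numbered 49 and 91. The dim pair was undetected on both arrays for 106 genes called higher and for 167 called lower, and their folds are lower bounds. The balance of the directions depended on the scaling: median scaling called 470 higher and 615 lower (308 and 371 separated), and scaling on 24 probes of T cell identity genes called 302 higher and 1251 lower (177 and 553 separated). Scaling on 26 probes of reference genes went the other way, with 719 called higher and 377 lower (464 and 271 separated). The shifts of the median of all genes were -0.14, -0.46 and 0.10 with these scalings in turn. With day 2, 4, 12 or 18 left out, 108, 260, 221 or 17 genes were called higher and 143, 334, 176 or 23 lower, with the lone day assumed to vary like the other pair. Leaving out a day can only keep or widen a gap, so the number of separated genes could not fall. With day 2, 4, 12 or 18 left out, 522, 659, 714 or 494 genes were separated higher and 441, 596, 602 or 379 lower.

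**Figure D1:**
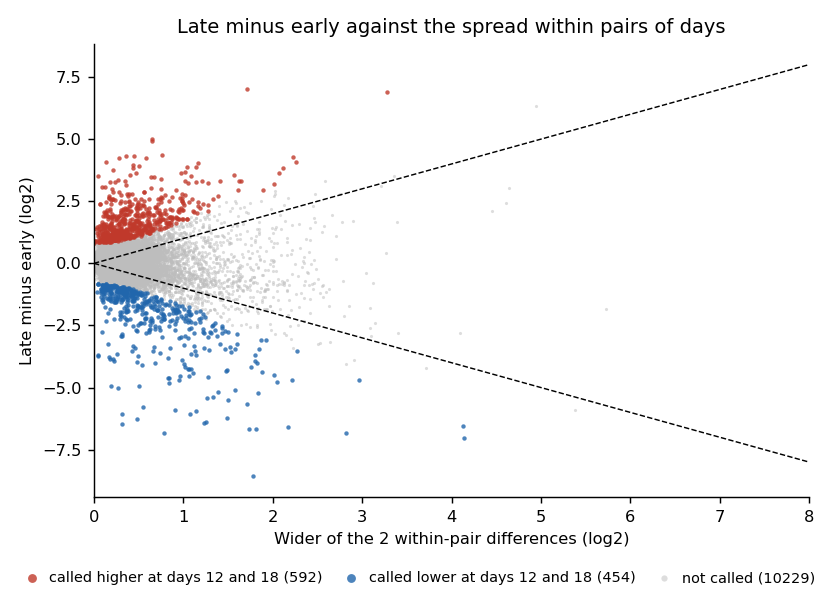
Late minus early difference (log2, vertical) of each of the 11275 genes against the wider of its 2 within-pair differences (log2, horizontal), with genes called higher in red (592), lower in blue (454) and the rest in grey. Dashed lines mark equal size, and the called genes lie outside them.

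The labelled cell type held on all 4 arrays, but the early arrays also carried signal of other cells. All 14 T cell identity genes tested were detected on every array, and their summed linear signal was 42669.5 and 43758.2 at days 12 and 18, against 21818.4 and 37656.7 at days 2 and 4. Neutrophil genes (11 tested) summed to 755.4 and 219.9 at days 12 and 18, against 32214.6 and 10769.5 at days 2 and 4. Macrophage and monocyte genes (16 tested) summed to 530.1 and 410.2 late, against 18677.3 and 7202.1 early. Both sums were far above the late days on each early array, and day 2 stood above day 4. Erythroid and platelet genes (10 tested) summed to 2559.4 and 1757.2 late and to 27501.9 and 3859.0 early. The defining granule genes S100a8 and S100a9 were undetected at day 18, and the macrophage genes C1qb, C1qc and Ms4a7 were undetected on both late arrays. Among the CD8 T and NK cell genes, Cd8a, Ncr1 and Klra1 were detected on none of the 4 arrays, while Cd8b1 gave 10.29 and 10.26 on days 12 and 18, against 9.93 and 9.89 on days 2 and 4 and did not pass (adjusted p = 0.232). The 6 tested genes of that list summed to 8807.9 and 11485.3 late, against 1630.6 and 1607.5 early. Nkg7 was the brightest of them late, at 12.84 and 13.29 on days 12 and 18, against 8.73 and 8.76 on days 2 and 4. Of the 6 differences, 4 were positive and 2 negative (median 0.45). Nkg7 and Eomes, which cytotoxic cells share, were the 2 called, both higher late. The negative differences were those of Klra4 (-1.34) and Klre1 (-0.59), and neither passed. Mast cell and basophil genes (12 tested) summed to 4643.4 and 1301.0 late and to 2053.0 and 2069.3 early. RNA of whole samples was measured, in which fewer cells of a type and less RNA per cell cannot be told apart. The part of these other cells in the differences below was not tested.

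**Figure D2:**
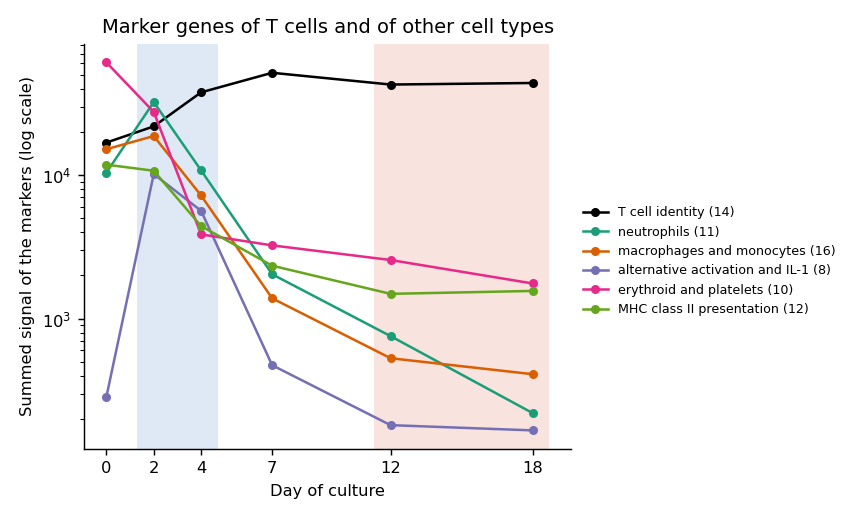
Summed normalized signal (linear values on a log axis) of marker gene lists against the day of culture, with days 2 and 4 shaded blue, days 12 and 18 shaded red, and the number of genes in brackets. T cell identity genes summed to 42669.5 and 43758.2 late, against 21818.4 and 37656.7 early, while neutrophil genes summed to 755.4 and 219.9 late, against 32214.6 and 10769.5 early.

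Most of the cytokine genes that define Th17 cells were lower late. Of 8 tested Th17 cytokine and receptor genes, 6 fell and 2 did not pass, beside 4.03% of all genes called lower. The median difference was -2.34, beside 0.00 over all genes. Of these 8 genes, 5 were detected early but on neither late array. Such genes entered through the early arrays, so the filter largely set their direction. The count and the median rest in part on them. Il17f, whose product recruits neutrophils, gave log2 signals of 6.08 and 4.30 on days 12 and 18, against 13.73 and 13.79 on days 2 and 4. The early arrays were alike and day 18 was undetected, a difference of -8.57 ± 0.57 (SE; adjusted p = 0.00350). Il17a gave 4.41 and 4.27 on days 12 and 18, against 10.25 and 10.57 on days 2 and 4, undetected on both late arrays and at least 44.7-fold lower (adjusted p = 0.00193). Its day 7 value, 9.05, still lay near the early pair. Il21, a growth factor for T and B cells, gave 4.25 and 4.32 on days 12 and 18, against 6.83 and 8.24 on days 2 and 4 (adjusted p = 0.0209), and Il22, which acts on epithelial barriers, gave 4.19 and 4.25 on days 12 and 18, against 5.78 and 5.52 on days 2 and 4 (adjusted p = 0.0169). Both were undetected late. Ccr6, the homing receptor of Th17 cells, gave 4.36 and 4.25 on days 12 and 18, against 10.34 and 9.01 on days 2 and 4, a difference of -5.37 ± 0.45 (adjusted p = 0.00636), and was undetected late. Il6ra, the IL-6 receptor that starts Th17 differentiation, fell by less, to 5.30 and 5.30 on days 12 and 18, against 6.14 and 6.29 on days 2 and 4. Il23r was detected on none of the 4 arrays. Il12rb1, a shared subunit of the IL-12 and IL-23 receptors, gave 8.45 and 8.52 on days 12 and 18, against 6.37 and 7.47 on days 2 and 4 and did not pass (adjusted p = 0.0655).

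Some transcription factors of the lineage were lower late. Of 11 tested, 4 fell and 7 did not pass (median -0.97), beside 4.03% of all genes called lower. Irf4, which opens Th17 genes together with Batf, gave 8.14 and 8.11 on days 12 and 18, against 10.61 and 11.09 on days 2 and 4, 6.63-fold lower with pairs that did not overlap (adjusted p = 0.00636). Batf gave 8.65 and 8.50 on days 12 and 18, against 9.98 and 9.47 on days 2 and 4 and Satb1, a chromatin organiser, gave 11.79 and 11.50 on days 12 and 18, against 12.58 and 12.81 on days 2 and 4, both lower late (adjusted p = 0.0471 and 0.0420). A dimmer Satb1 probe, also detected on all 4 arrays, differed by only -0.17, with overlapping pairs. Maf, Stat3 and Hif1a were among those that did not pass, as was Rora, a nuclear receptor, which gave 8.04 and 7.33 on days 12 and 18, against 7.96 and 8.81 on days 2 and 4 with overlapping pairs.

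Cytokines of other lineages also fell in part. Of 11 tested genes of the Th2 list, which also holds other helper cytokines, 4 fell and 7 did not pass (median -0.98). Of all genes tested, 4.03% were called lower. On neither late array were 5 of the 11 detected, so the filter largely set the direction of those 5. Il24, a cytokine of the IL-10 family, gave 7.09 and 5.59 on days 12 and 18, against 11.16 and 12.52 on days 2 and 4, 45.2-fold lower (adjusted p = 0.0125). Csf2, which encodes GM-CSF, gave 5.54 and 5.51 on days 12 and 18, against 7.65 and 7.35 on days 2 and 4 (adjusted p = 0.00859), and the chemokine receptor gene Ccr8 gave 4.94 and 4.45 on days 12 and 18, against 7.12 and 7.26 on days 2 and 4 (adjusted p = 0.00792). Il13 also fell and was undetected late. Il3 gave 4.40 and 4.20 on days 12 and 18, against 10.36 and 6.65 on days 2 and 4 and was separated, but day 4 minus day 2 was -3.71 and it did not pass (adjusted p = 0.0844). Il2, the T cell growth factor, gave 4.39 and 4.27 on days 12 and 18, against 10.51 and 7.55 on days 2 and 4, at least 17.2-fold lower (adjusted p = 0.0426). In the list of the IL-2 receptor and its feedback, 3 of 15 fell, the other two being Stat5a at 7.51 and 7.38 on days 12 and 18, against 9.68 and 9.39 on days 2 and 4 and Socs3 at 8.77 and 9.09 on days 12 and 18, against 10.56 and 10.12 on days 2 and 4. The receptor chain Il2ra gave 8.42 and 8.57 on days 12 and 18, against 9.50 and 10.50 on days 2 and 4 and did not pass (adjusted p = 0.0624).

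Genes of the Th1 program moved both ways. Of 15 tested, 7 rose and 1 fell (median 0.97), beside 5.25% and 4.03% of all genes called higher and lower. Receptor genes were among those that rose. Cxcr3, the receptor for interferon-induced chemokines, gave 8.61 and 8.42 on days 12 and 18, against 6.29 and 5.80 on days 2 and 4 (adjusted p = 0.00801), with day 7 at 4.95, below all 4 arrays. Il18r1 and Il18rap, both chains of the IL-18 receptor, also rose, by 2.64 ± 0.36 and 1.70 ± 0.24, and Il18rap was undetected early. A dimmer Il18r1 probe, detected on all 4 arrays, differed by 0.50, and another, detected on 1 of them, by 0.64. The fall was in Ccl3, a chemokine, at 6.85 and 6.70 on days 12 and 18, against 9.85 and 9.55 on days 2 and 4 (adjusted p = 0.00358). The cytokine itself, Ifng, gave 7.65 and 9.03 on days 12 and 18, against 10.79 and 9.91 on days 2 and 4. The pairs did not overlap, but the difference of -2.01 ± 0.53 did not pass (adjusted p = 0.0781). Tbx21, which encodes T-bet, gave 6.58 and 6.21 on days 12 and 18, against 5.76 and 5.55 on days 2 and 4 and did not pass either (adjusted p = 0.0951).

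Several genes of cytotoxic granules were higher late. Of 13 tested, 6 rose and 7 did not pass, beside 5.25% of all genes called higher. All 13 differences were positive (median 3.02), but 12 and 13 members were detected on days 12 and 18, against 8 and 7 on days 2 and 4. Members detected only late entered through the late arrays, so the filter largely set their sign. The count of signs and the median rest in part on such members. Gzmd, a granzyme (a serine protease of granules), gave 13.09 and 14.70 on days 12 and 18, against 6.04 and 7.75 on days 2 and 4, 128-fold higher (adjusted p = 0.00998), and Gzme gave 9.67 and 12.95 on days 12 and 18, against 4.38 and 4.44 on days 2 and 4, undetected early and at least 84.4-fold higher (adjusted p = 0.0222). Nkg7, a granule membrane protein, gave 12.84 and 13.29 on days 12 and 18, against 8.73 and 8.76 on days 2 and 4, 20.0-fold higher with a tight spread (adjusted p = 0.00216). Prf1, the pore-forming perforin, gave 10.27 and 12.35 on days 12 and 18, against 7.80 and 7.54 on days 2 and 4 (adjusted p = 0.0350), Gzmk gave 7.11 and 7.33 on days 12 and 18, against 4.36 and 4.30 on days 2 and 4 (adjusted p = 0.00333) and the death ligand Fasl gave 9.08 and 9.76 on days 12 and 18, against 5.63 and 6.38 on days 2 and 4 (adjusted p = 0.00968). Day 18 was above day 12 in each of these 6 genes. Gzmg gave 8.11 and 13.06 on days 12 and 18, against 4.27 and 4.21 on days 2 and 4 and was separated, but day 18 minus day 12 was 4.95 and it did not pass (adjusted p = 0.0645). Gzmn gave 5.13 and 9.77 on days 12 and 18, against 4.46 and 4.39 on days 2 and 4 and Gzmf 4.37 and 8.98 on days 12 and 18, against 4.27 and 4.22 on days 2 and 4, bright at day 18 alone. These granzymes are close paralogs whose probes could bind each other's transcripts. Gzmb was detected on none of the 4 arrays. Srgn, the granule proteoglycan, and Lamp1, a lysosomal membrane protein, differed by 0.08 ± 0.36 and 0.32 ± 0.18 and did not pass. Sytl2, which docks secretory vesicles, gave 10.31 and 10.96 on days 12 and 18, against 5.35 and 5.89 on days 2 and 4 (adjusted p = 0.00315).

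**Figure D3:**
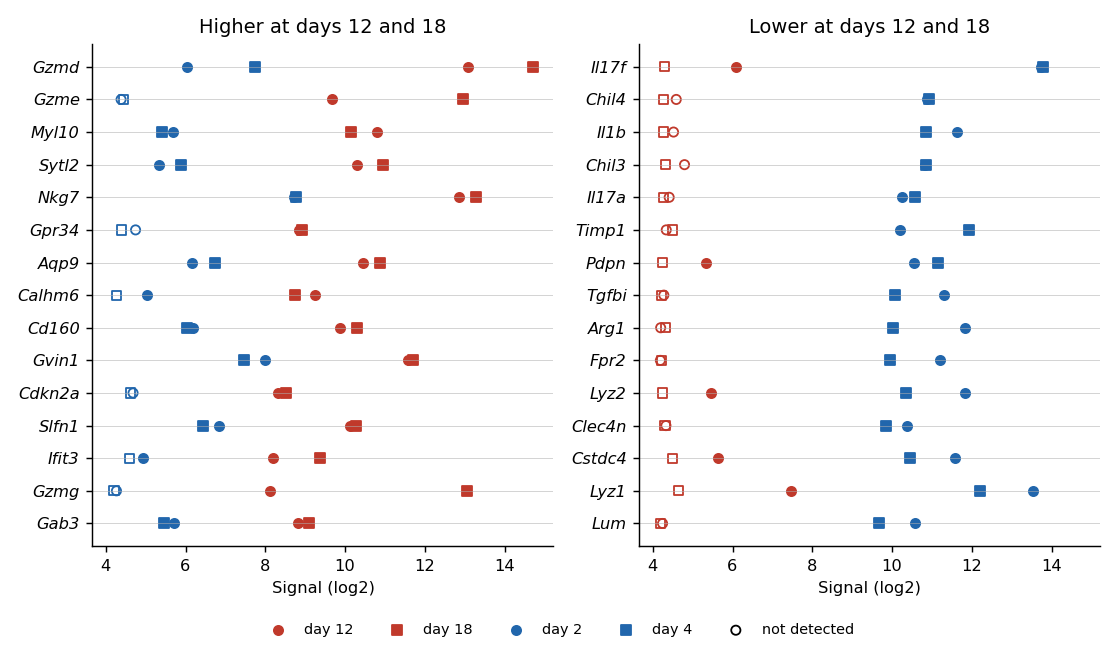
Log2 signals on the late arrays (days 12 and 18, red) and the early arrays (days 2 and 4, blue) of the 15 genes separated by the widest gap in each direction, with open symbols where a probe was not detected. Gzmd lies at 13.09 and 14.70 late and at 6.04 and 7.75 early, and Il17f at 6.08 and 4.30 late and at 13.73 and 13.79 early.

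Genes of receptors that restrain T cells also split. Of 11 inhibitory receptor and ligand genes, 3 rose and 3 fell (median -0.07). Havcr2, which encodes TIM-3, gave 8.92 and 11.15 on days 12 and 18, against 6.26 and 5.27 on days 2 and 4, 19.3-fold higher (adjusted p = 0.0338). Cd160 gave 9.87 and 10.31 on days 12 and 18, against 6.20 and 6.03 on days 2 and 4, 15.7-fold higher (adjusted p = 0.00278), and Cd244a, the SLAM family receptor 2B4, gave 6.75 and 7.85 on days 12 and 18, against 5.07 and 4.35 on days 2 and 4 (adjusted p = 0.0298). The other 3 went the opposite way: Cd200 gave 4.52 and 4.33 on days 12 and 18, against 9.31 and 9.41 on days 2 and 4 (adjusted p = 0.00193), Btla gave 6.96 and 6.59 on days 12 and 18, against 9.30 and 8.72 on days 2 and 4 (adjusted p = 0.0135) and Ctla4 gave 9.26 and 8.79 on days 12 and 18, against 11.62 and 10.65 on days 2 and 4 (adjusted p = 0.0326). Pdcd1, which encodes PD-1, was near the detection limit throughout, at 4.93 and 4.80 on days 12 and 18, against 4.97 and 4.91 on days 2 and 4, and did not pass. Among 16 costimulatory and TNF superfamily genes, 1 rose and 1 fell, near the 5.25% and 4.03% of all genes called higher and lower. Tnfrsf4 (OX40) fell to 8.79 and 8.17 on days 12 and 18, against 12.32 and 11.66 on days 2 and 4 (adjusted p = 0.00792). Tnfsf10 (TRAIL) rose to 6.36 and 6.54 on days 12 and 18, against 5.13 and 5.03 on days 2 and 4 (adjusted p = 0.0172). Of 12 killer lectin and SLAM receptor genes, Cd160, Cd244a and Klrk1, which encodes the activating receptor NKG2D, rose and Klra7 fell. Klrg1 gave 6.18 and 8.36 on days 12 and 18, against 4.62 and 4.63 on days 2 and 4 and was separated without passing (adjusted p = 0.0761).

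Interferon-induced genes and the class I antigen presentation pathway were mostly higher late. Of 17 tested type I interferon response genes, 11 rose and 6 did not pass (median 1.38), and of 13 class I and immunoproteasome genes, 8 rose and 5 did not pass (median 1.26). Of all genes tested, 5.25% were called higher. Of the 17 type I genes, 16 were detected on each late day, against 11 and 7 on days 2 and 4. Members detected only late entered through the late arrays, so the filter largely set their sign. All 13 class I genes were detected on each of the 4 arrays. Ifit3, an antiviral protein, gave 8.20 and 9.37 on days 12 and 18, against 4.92 and 4.59 on days 2 and 4, undetected at day 4 (adjusted p = 0.00916). Isg20, an exonuclease, gave 7.93 and 7.70 on days 12 and 18, against 4.55 and 4.55 on days 2 and 4 (adjusted p = 0.00278), and Irf7, the factor that amplifies interferon, gave 6.37 and 6.86 on days 12 and 18, against 4.55 and 4.25 on days 2 and 4 (adjusted p = 0.0113). Both were undetected early. Usp18, which damps interferon signalling, gave 9.78 and 9.71 on days 12 and 18, against 7.81 and 6.74 on days 2 and 4 (adjusted p = 0.0227). Among the class I genes, the transcriptional activator Nlrc5 gave 9.74 and 9.93 on days 12 and 18, against 6.93 and 7.55 on days 2 and 4, 6.03-fold higher (adjusted p = 0.00899). H2-K1, a class I heavy chain, was higher by 1.77 ± 0.20, and the peptide transporter gene Tap2 gave 11.25 and 11.18 on days 12 and 18, against 9.58 and 9.72 on days 2 and 4 (adjusted p = 0.0114 and 0.0116). Both pairs were tight and did not overlap, and B2m, at 14.14 and 14.22 on days 12 and 18, against 13.45 and 13.36 on days 2 and 4, missed the threshold (adjusted p = 0.0572). Both groups kept a positive median under every scaling tried (0.85 and 0.74 at the lowest, with T cell identity scaling). For the type I genes that sign rests in part on members detected only late.

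Of 13 interferon-gamma-induced genes, 6 rose and 1 fell (median 0.45, or 0.02 with T cell identity scaling). Among all genes tested, 5.25% were called higher and 4.03% lower. The GTPase genes Irgm2, Gbp3, Gbp2 and Igtp, which act against pathogens inside cells, led the rise. Irgm2 gave 10.59 and 10.65 on days 12 and 18, against 7.90 and 8.06 on days 2 and 4 and Gbp3 gave 10.08 and 9.87 on days 12 and 18, against 7.28 and 7.49 on days 2 and 4 (adjusted p = 0.00358 and 0.00463). Gbp2 gave 12.79 and 12.71 on days 12 and 18, against 10.07 and 10.46 on days 2 and 4, already at 12.30 on day 7, and Igtp rose by 2.14 ± 0.23. Gvin1, a very large interferon-induced GTPase outside these lists, gave 11.57 and 11.71 on days 12 and 18, against 7.98 and 7.48 on days 2 and 4, 15.1-fold higher (adjusted p = 0.00315). Cxcl9, a chemokine that interferon-gamma induces in macrophages, was the exception at 4.46 and 4.20 on days 12 and 18, against 8.21 and 7.10 on days 2 and 4, lower late and undetected on both late arrays (adjusted p = 0.0125). The factor Irf1 gave 11.87 and 11.80 on days 12 and 18, against 10.58 and 10.01 on days 2 and 4 (adjusted p = 0.0275).

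The promoters of these genes are shown because they hold the letters of the interferon-stimulated response element (ISRE), searched as GAAA, any 2 bases and GAAA again on both strands in the window from 250 bases before to 50 bases after each start. RefSeq promoters (build GRCm38.p6) were given for 20 of the 25 genes of the 3 lists that rose, and those of 10 genes held the letters. Of 557 promoters of 388 genes called higher, 7.00% held them, against 3.65% of 439 promoters of genes called lower and 3.44% of all 32851 promoters. The 4 with the largest late minus early difference follow, 5′ to 3′ on the gene's strand, with each match in capitals (TTTC, 2 bases and TTTC where it lies on the other strand). Ifit3 is at chr19:34583279-34583578, Irgm2 at chr11:58214727-58215026, Gbp3 at chr3:142559794-142560093 and Gbp2 at chr3:142620413-142620712, all on the plus strand.
Ifit3: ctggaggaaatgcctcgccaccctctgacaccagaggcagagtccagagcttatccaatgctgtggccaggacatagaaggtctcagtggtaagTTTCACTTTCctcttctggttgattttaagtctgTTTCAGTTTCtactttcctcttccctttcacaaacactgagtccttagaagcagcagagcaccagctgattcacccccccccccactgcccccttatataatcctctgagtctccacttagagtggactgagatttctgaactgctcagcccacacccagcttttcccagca
Irgm2: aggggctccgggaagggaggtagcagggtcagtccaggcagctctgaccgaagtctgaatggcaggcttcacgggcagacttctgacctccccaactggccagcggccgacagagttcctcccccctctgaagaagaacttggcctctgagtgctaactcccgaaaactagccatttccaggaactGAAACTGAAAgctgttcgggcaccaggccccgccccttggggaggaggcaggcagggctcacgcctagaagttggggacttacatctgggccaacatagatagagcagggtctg
Gbp3: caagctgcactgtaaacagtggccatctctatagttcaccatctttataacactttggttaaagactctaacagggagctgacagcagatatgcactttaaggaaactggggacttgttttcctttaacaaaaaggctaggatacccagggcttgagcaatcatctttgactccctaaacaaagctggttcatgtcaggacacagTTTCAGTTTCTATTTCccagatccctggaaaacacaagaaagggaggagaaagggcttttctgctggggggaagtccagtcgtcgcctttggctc
Gbp2: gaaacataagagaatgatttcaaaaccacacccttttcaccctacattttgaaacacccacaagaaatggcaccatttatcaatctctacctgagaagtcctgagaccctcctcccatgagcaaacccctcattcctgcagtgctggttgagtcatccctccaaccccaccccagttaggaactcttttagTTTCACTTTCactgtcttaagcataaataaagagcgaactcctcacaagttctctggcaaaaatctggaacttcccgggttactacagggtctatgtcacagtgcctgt
The first match begins 156 bases before the start of Ifit3, which holds 2 separate matches, and 64, 45 and 59 bases before those of Irgm2, Gbp3 and Gbp2. A match is a description of these letters and not a site of binding.

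Genes of resting and memory T cells moved in both directions. Of 16 tested quiescence and homing genes, 6 rose and 3 fell (median 0.89), beside 5.25% and 4.03% of all genes called higher and lower. Klf2, a factor that holds T cells at rest, gave 6.93 and 6.80 on days 12 and 18, against 5.13 and 4.42 on days 2 and 4 (adjusted p = 0.0172), below its day 0 value of 10.45. Il7r, the receptor of the survival cytokine IL-7, gave 10.71 and 10.80 on days 12 and 18, against 8.50 and 9.16 on days 2 and 4 (adjusted p = 0.0193). Pik3ip1, an inhibitor of PI3 kinase, gave 7.22 and 7.78 on days 12 and 18, against 4.38 and 4.85 on days 2 and 4 and was undetected early (adjusted p = 0.00859), and Txnip, which limits glucose uptake, gave 11.87 and 12.36 on days 12 and 18, against 9.51 and 9.96 on days 2 and 4 (adjusted p = 0.0114). The day 7 signals of Il7r and Txnip, 10.76 and 11.50, were already near the late pair. The genes that fell were Bach2, a repressor of effector genes, at 7.16 and 7.11 on days 12 and 18, against 8.96 and 8.83 on days 2 and 4 (adjusted p = 0.00894), Ccr7, a lymph node homing receptor, at 6.74 and 6.68 on days 12 and 18, against 8.17 and 7.68 on days 2 and 4 (adjusted p = 0.0376), and Satb1, whose dimmer probe is given above. Tcf7, the factor TCF-1, gave 8.42 and 8.23 on days 12 and 18, against 7.37 and 6.70 on days 2 and 4 and just missed the threshold (adjusted p = 0.0507). Eomes, a T-box factor of effector and memory cells, gave 5.95 and 6.73 on days 12 and 18, against 4.41 and 4.19 on days 2 and 4, undetected early (adjusted p = 0.0222). The T cell receptor list (18 tested) had 2 genes higher, 1 lower and a median of 0.57, beside 5.25% and 4.03% of all genes. Trat1, an adaptor of the receptor complex, gave 10.03 and 8.14 on days 12 and 18, against 6.10 and 6.18 on days 2 and 4 (adjusted p = 0.0467), and Cd6, a surface receptor, was the gene that fell, while Cd3e gave 11.94 and 12.12 on days 12 and 18, against 10.85 and 11.49 on days 2 and 4 and did not pass (adjusted p = 0.107).

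Proliferation genes did not pass the test as single genes, and day 18 stood apart from the other 3 arrays. Limma called 0 of 25 mitosis genes (0 at an unadjusted p below 0.05) and 0 of 31 S phase genes (14 at an unadjusted p below 0.05, all of them negative). All 25 and all 31 differences were negative, with medians of -0.83 and -0.61. For the mitosis genes the median signal at day 12 lay 0.13 above the early mean, and at day 18 it lay -1.87 from it. The median of day 18 minus day 12 was -2.16 over these 25 genes, beside 0.01 over all genes. All 25 and all 31 genes had their lowest signal of the 5 activated days at day 18, as did 2807 of the 11275 genes tested. Ccnb1, the mitotic cyclin B1, gave 9.54 and 6.91 on days 12 and 18, against 9.92 and 9.98 on days 2 and 4, and Mki67, the proliferation marker Ki-67, gave 10.01 and 7.50 on days 12 and 18, against 9.31 and 9.44 on days 2 and 4. In both, day 12 was near the early arrays and day 18 was far below them. Tyms, which makes the thymidine of new DNA, gave 10.15 and 8.80 on days 12 and 18, against 10.37 and 10.19 on days 2 and 4, and Mcm10, a replication factor, gave 9.57 and 8.78 on days 12 and 18, against 10.41 and 10.57 on days 2 and 4 (adjusted p = 0.0577). For Mcm10, both late arrays were below both early arrays. Both late values were below both early values for 7 mitosis genes and 26 S phase genes, as for 31.2% of all genes tested (32.4% had both above).

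**Figure D4:**
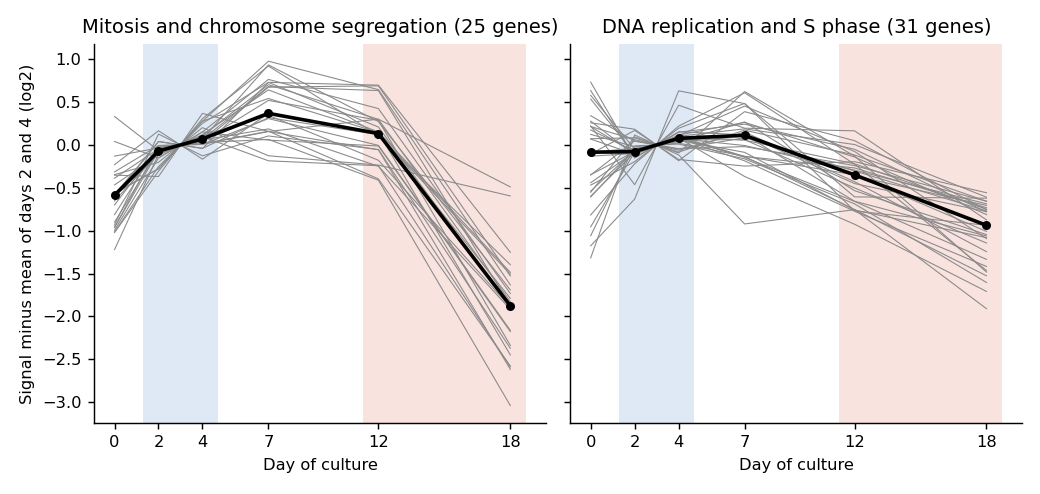
Log2 signal minus the mean of days 2 and 4 (vertical) against the day of culture for 25 mitosis genes (left) and 31 S phase genes (right), with a grey line per gene, the median in black, days 2 and 4 shaded blue and days 12 and 18 shaded red. The median of mitosis genes lies at 0.13 on day 12 and at -1.87 on day 18.

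Inhibitors of the cell cycle and targets of p53 were partly higher on both late days. Of 18 tested, 4 rose, 1 fell and 13 did not pass (median 0.80), beside 5.25% and 4.03% of all genes called higher and lower. Cdkn2a, which encodes the inhibitors p16INK4a and p19ARF, gave 8.32 and 8.53 on days 12 and 18, against 4.68 and 4.61 on days 2 and 4. It was undetected on both early arrays and at day 7 (4.75), and at least 11.4-fold higher late (adjusted p = 0.00209). Sesn1, a stress-induced inhibitor of growth signalling, gave 9.80 and 9.70 on days 12 and 18, against 7.67 and 7.52 on days 2 and 4 (adjusted p = 0.00645). Bbc3, the death-promoting protein PUMA, gave 8.26 and 8.63 on days 12 and 18, against 6.12 and 6.39 on days 2 and 4 (adjusted p = 0.00901), although 2 dimmer probes of the gene, each undetected on at least 2 of the 4 arrays, differed by 0.19 and 0.64. Trp53inp1 gave 10.16 and 9.69 on days 12 and 18, against 6.68 and 8.02 on days 2 and 4 (adjusted p = 0.0345). The fall was in Gadd45b, an early response gene, at 5.97 and 5.96 on days 12 and 18, against 8.85 and 7.77 on days 2 and 4 (adjusted p = 0.0269). Mxd4, an antagonist of MYC, gave 9.46 and 10.01 on days 12 and 18, against 7.24 and 7.51 on days 2 and 4 (adjusted p = 0.0105), while the polyamine enzyme gene Srm fell to 10.18 and 10.42 on days 12 and 18, against 11.48 and 11.21 on days 2 and 4 (adjusted p = 0.0408).

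Glycolysis genes were lower late in part. Of 19 glycolysis genes, 4 fell and 15 did not pass (median -0.81), and 16 of the differences were negative. Among all genes tested, 4.03% were called lower. Tpi1, triosephosphate isomerase, gave 12.25 and 12.22 on days 12 and 18, against 13.89 and 13.45 on days 2 and 4 (adjusted p = 0.0237), and Pgam1, phosphoglycerate mutase, gave 8.64 and 8.34 on days 12 and 18, against 10.04 and 9.67 on days 2 and 4 (adjusted p = 0.0285). Pkm, pyruvate kinase, and Pgk1, phosphoglycerate kinase, fell by about as much, with differences of -1.12 ± 0.19 and -1.03 ± 0.18 (adjusted p = 0.0299 and 0.0306). The glucose transporter gene Slc2a1 gave 10.23 and 10.52 on days 12 and 18, against 11.92 and 11.27 on days 2 and 4 and missed the threshold (adjusted p = 0.0572). Of 15 hypoxia targets, 3 fell and 12 did not pass (median -0.60). Egln3, an oxygen-sensing hydroxylase, gave 8.36 and 8.01 on days 12 and 18, against 10.43 and 10.38 on days 2 and 4 (adjusted p = 0.00779), and Ndrg1 gave 7.65 and 7.45 on days 12 and 18, against 9.56 and 9.02 on days 2 and 4 (adjusted p = 0.0200). Limma called 0 of 19 cytosolic ribosomal protein genes (0 at an unadjusted p below 0.05), whose differences ran from -0.26 to 0.31. It called 0 of 22 respiratory chain genes and 0 of 19 proteasome genes (2 of each at an unadjusted p below 0.05), with medians of -0.08 and -0.24. With T cell identity scaling, which shifted all genes by -0.46, the medians of the ribosomal protein, respiratory chain and proteasome genes were -0.27, -0.60 and -0.71.

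Amino acid supply genes split. Of 21 tested targets of ATF4, the factor that answers amino acid shortage, and transporters, 4 rose and 3 fell. Among all genes tested, 5.25% were called higher and 4.03% lower. The median of the 21 genes, 0.26, turned to -0.25 with T cell identity scaling. Trib3, a pseudokinase, gave 9.35 and 9.30 on days 12 and 18, against 7.24 and 7.44 on days 2 and 4 (adjusted p = 0.00785), and Chac1, which degrades glutathione, gave 8.30 and 8.85 on days 12 and 18, against 6.41 and 6.89 on days 2 and 4 (adjusted p = 0.0219). The arginine transporter gene Slc7a3 and the asparagine synthetase gene Asns rose by 1.39 ± 0.22 and 1.16 ± 0.19. The genes that fell were Vldlr, a lipoprotein receptor, at 4.99 and 4.46 on days 12 and 18, against 7.56 and 6.88 on days 2 and 4 (adjusted p = 0.0143), the cystine transporter gene Slc7a11 and the folate enzyme gene Shmt1. Of 22 ribosome biogenesis genes, Nop2 and Nop56 fell and 21 of the 22 differences were negative (median -0.39).

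Activation-induced genes were lower late in part, while secreted factors went both ways. Of 17 immediate early and AP-1 genes, 4 fell and 1 rose (median -0.63), beside 4.03% and 5.25% of all genes called lower and higher. Dusp4, a phosphatase of MAP kinases, gave 5.63 and 5.81 on days 12 and 18, against 9.60 and 9.51 on days 2 and 4, 14.3-fold lower with a tight spread (adjusted p = 0.00209). Egr2, a factor induced by the T cell receptor, gave 4.63 and 5.06 on days 12 and 18, against 8.35 and 8.41 on days 2 and 4 (adjusted p = 0.00315), and the AP-1 subunit gene Junb gave 8.25 and 9.31 on days 12 and 18, against 10.99 and 11.13 on days 2 and 4 (adjusted p = 0.0277). Another AP-1 subunit gene, Jund, went the other way, at 7.08 and 7.30 on days 12 and 18, against 5.88 and 6.09 on days 2 and 4 (adjusted p = 0.0279), and Egr1 gave 9.40 and 11.14 on days 12 and 18, against 10.01 and 10.11 on days 2 and 4, with overlapping pairs (adjusted p = 0.827). Among secreted and matrix genes (20 tested), 5 rose and 5 fell. Timp1, an inhibitor of metalloproteinases, gave 4.34 and 4.49 on days 12 and 18, against 10.20 and 11.93 on days 2 and 4, undetected late and at least 70.7-fold lower (adjusted p = 0.00645), and Lif, a cytokine of the IL-6 family, differed by -3.39 ± 0.32 (adjusted p = 0.00801). Pdpn, the membrane glycoprotein podoplanin, gave 5.33 and 4.25 on days 12 and 18, against 10.56 and 11.15 on days 2 and 4 (adjusted p = 0.00358). In the other direction S100a4, a calcium-binding protein of motile cells, gave 7.92 and 9.06 on days 12 and 18, against 4.42 and 4.82 on days 2 and 4, undetected early (adjusted p = 0.00992), and Lgals3, the lectin galectin-3, gave 13.17 and 14.17 on days 12 and 18, against 11.79 and 11.29 on days 2 and 4 (adjusted p = 0.0340). Spp1, osteopontin, gave 10.29 and 12.77 on days 12 and 18, against 9.15 and 8.34 on days 2 and 4 and was separated without passing (adjusted p = 0.0956).

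Chemokine genes were mostly lower late, and their receptors went both ways. Of 14 chemokine genes, 8 fell and 6 did not pass (median -2.34), beside 4.03% of all genes called lower. Of these 14 genes, 7 were detected early but on neither late array. The filter largely set the direction of those 7, and the count and median rest in part on them. The genes that fell were Ccl3, Ccl6, Ccl9, Ccl17, Ccl24, Cxcl2, Cxcl9 and Cxcl16. Ccl17, a ligand of the receptor CCR4, gave 4.31 and 4.16 on days 12 and 18, against 10.30 and 9.03 on days 2 and 4, undetected late (adjusted p = 0.00544), and Ccl9 gave 6.69 and 5.63 on days 12 and 18, against 10.31 and 10.49 on days 2 and 4 (adjusted p = 0.00673). The neutrophil and macrophage sums given above were also lower late, and their part in the chemokine values was not tested. Of 22 chemokine receptor and integrin genes, 4 rose and 3 fell (median 0.46, or -0.03 with T cell identity scaling). Among all genes tested, 5.25% were called higher and 4.03% lower. Besides Cxcr3, Ccr2 rose to 6.72 and 7.18 on days 12 and 18, against 4.36 and 4.36 on days 2 and 4 (adjusted p = 0.00673) and Cxcr6 to 6.06 and 6.59 on days 12 and 18, against 4.35 and 4.49 on days 2 and 4 (adjusted p = 0.0146), both undetected early. Cxcr4, a homing receptor, gave 7.09 and 5.12 on days 12 and 18, against 8.17 and 8.94 on days 2 and 4 and was separated lower without passing (adjusted p = 0.0843). The integrin gene Itgb7 gave 11.67 and 11.49 on days 12 and 18, against 8.55 and 10.18 on days 2 and 4 and was separated higher without passing (adjusted p = 0.0645).

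**Figure D5:**
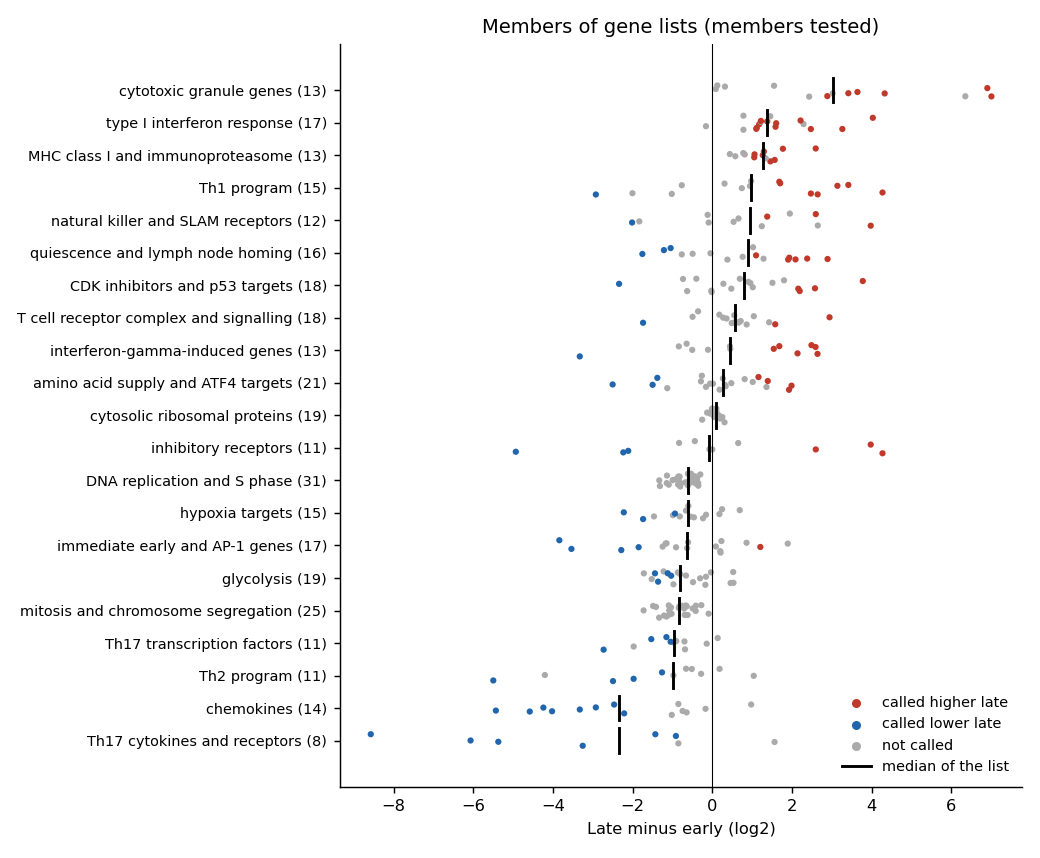
Late minus early difference (log2, horizontal) of each tested member of 21 gene lists, with called genes in red (higher late) or blue (lower late), the rest in grey, and the list median as a black bar. Cytotoxic granule genes have a median of 3.02 and Th17 cytokine and receptor genes one of -2.34.

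Several of the widest differences were in genes of cells other than T cells. Limma called 4 of 11 neutrophil genes, 8 of 16 macrophage and monocyte genes, 6 of 8 genes of alternative activation and IL-1, 5 of 12 class II presentation genes and 1 of 10 erythroid and platelet genes, all lower late. Of all genes tested, 4.03% were called lower. All 8 alternative activation genes and 11 of the 16 macrophage genes were detected early but on neither late array. Such genes entered through the early arrays, so the filter largely set their direction. Arg1, arginase of activated macrophages, gave 4.20 and 4.33 on days 12 and 18, against 11.84 and 10.03 on days 2 and 4, undetected late and at least 64.2-fold lower (adjusted p = 0.00673). Il1b, the cytokine IL-1β, gave 4.52 and 4.27 on days 12 and 18, against 11.63 and 10.84 on days 2 and 4 (adjusted p = 0.00209), and Chil3, a secreted chitinase-like protein, gave 4.80 and 4.31 on days 12 and 18, against 10.82 and 10.85 on days 2 and 4 (adjusted p = 0.00193). These 3 genes were dim at day 0, at 4.49, 6.49 and 5.57. Lyz2, lysozyme of myeloid cells, gave 5.46 and 4.24 on days 12 and 18, against 11.83 and 10.35 on days 2 and 4 (adjusted p = 0.00859), and S100a8, a subunit of calprotectin, gave 8.48 and 4.35 on days 12 and 18, against 14.09 and 12.84 on days 2 and 4 (adjusted p = 0.0383). Cd74, the invariant chain of class II molecules, gave 7.59 and 8.15 on days 12 and 18, against 11.92 and 10.32 on days 2 and 4 (adjusted p = 0.0296), and was as bright at day 0 (12.33). Hbb-b1, a haemoglobin chain with near-identical copies, gave 5.70 and 4.39 on days 12 and 18, against 13.67 and 9.54 on days 2 and 4 (adjusted p = 0.0457), and day 4 minus day 2 was -4.13. Lum, the matrix proteoglycan lumican, gave 4.25 and 4.20 on days 12 and 18, against 10.57 and 9.67 on days 2 and 4. Tgfbi, a matrix protein, gave 4.28 and 4.22 on days 12 and 18, against 11.30 and 10.07 on days 2 and 4, and both genes were undetected late. Batf3, a factor of dendritic cells and of activated T cells, gave 8.48 and 8.65 on days 12 and 18, against 10.25 and 11.28 on days 2 and 4 (adjusted p = 0.0285).

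In further lists 1 or 2 genes passed, beside 5.25% and 4.03% of all genes called higher and lower. Of 12 regulatory T cell and TGF-beta genes, Tgfbr2, a TGF-beta receptor chain, rose to 11.46 and 11.42 on days 12 and 18, against 9.45 and 9.92 on days 2 and 4 (adjusted p = 0.0155). Foxp3, the factor of regulatory T cells, gave 8.30 and 8.42 on days 12 and 18, against 9.26 and 8.88 on days 2 and 4 and did not pass (adjusted p = 0.0967). Of 13 memory and effector fate factors, Eomes rose and Zeb2, a transcriptional repressor, fell to 4.66 and 4.48 on days 12 and 18, against 6.54 and 6.04 on days 2 and 4 (adjusted p = 0.0187). Of 11 DNA methylation and Polycomb genes, Kdm6b, a histone demethylase, fell to 6.71 and 6.63 on days 12 and 18, against 7.98 and 7.70 on days 2 and 4 (adjusted p = 0.0285). Of 23 lipid synthesis and export genes, Abcg1, a cholesterol exporter, rose to 5.74 and 6.04 on days 12 and 18, against 4.57 and 4.98 on days 2 and 4 (adjusted p = 0.0472). Of 20 genes of the BCL-2 family and death pathways, Bbc3 and Fasl rose, and the survival gene Bcl2 gave 9.24 and 9.44 on days 12 and 18, against 7.97 and 8.54 on days 2 and 4 and did not pass (adjusted p = 0.0615).

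Some genes with wide gaps belong to none of the lists. Myl10, a myosin light chain, gave 10.80 and 10.15 on days 12 and 18, against 5.70 and 5.41 on days 2 and 4, 30.4-fold higher (adjusted p = 0.00278). Gpr34, a lysophospholipid receptor, gave 8.85 and 8.93 on days 12 and 18, against 4.75 and 4.39 on days 2 and 4, undetected early (adjusted p = 0.00209), and Aqp9, a water and glycerol channel, gave 10.46 and 10.87 on days 12 and 18, against 6.15 and 6.73 on days 2 and 4 (adjusted p = 0.00350). Calhm6, of an ion channel family, Slfn1, of the Schlafen family, and the adaptor gene Gab3 rose by 4.35 ± 0.33, 3.57 ± 0.22 and 3.37 ± 0.21. Ighm, the immunoglobulin mu heavy chain, gave 10.27 and 10.22 on days 12 and 18, against 7.08 and 6.44 on days 2 and 4 (adjusted p = 0.00463) and was near its late level at day 0 (10.11). Unlike the genes before it here, Ighm is in a list, that of the B lineage, of which 4 genes were tested and only Ighm passed. Cd79b was detected on all 4 arrays, at 7.15 and 5.81 on days 12 and 18, against 5.80 and 5.90 on days 2 and 4 (adjusted p = 0.392). Vpreb1 was detected at day 2 alone of the 4 days and Ebf1 at day 4 alone. The other members, among them Ms4a1 and Pax5, were detected on none of the 4 arrays. Among 246 other probes of called genes that were detected on all 4 arrays, 239 had the sign of the probe used and 7 did not.

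Day 7 lay midway. Over the genes called higher, day 7 stood at a median of 0.50 of the way from the early to the late mean, and over the genes called lower at 0.54. Day 7 was nearer the late mean for 301 of the 592 genes higher and for 244 of the 454 genes lower. Signals followed the order of days 2, 4, 7, 12 and 18 without exception for 184 genes higher and 164 genes lower. Against day 0, the late mean lay within 2-fold for 345 of the genes higher and 247 of the genes lower. For 177 genes higher and 173 lower, the early mean differed from day 0 by at least 2-fold and the late mean was back within 2-fold of it, as for Txnip, at 11.61 on day 0. For 180 genes higher and 99 lower, the early mean was within 2-fold of day 0 and the late mean was not, as for Cdkn2a, at 4.30 on day 0.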

How the data were processed

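Probe signals of 45281 probes were deposited as intensity values with no normalization and no background subtraction, exported from Illumina GenomeStudio (GSGX 1.9.0), per the file headers. A detection p-value per probe and array was deposited beside each signal, with no word on its computation in the headers or labels. The labels name a MouseRef-8 labelling protocol, total RNA (Trizol, column, DNase) and biotin. A second deposited table of intensity values had the same quantiles on every array (median 3.1) and ranked probes as the signals did. It served as an alternative, and its normalization is not stated in the labels. Between 30.2% and 31.5% of probes were detected on an array, and 1 array a day limits the precision.

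From there, all 6 arrays were corrected (normexp from the detection p-values), quantile-normalized and put on the log2 scale with an offset of 16, by neqc of limma 3.58.1 (R 4.3.3). A gene was read from 1 probe, the brightest on average over the 6 arrays. Of 30854 array names, 16223 matched a RefSeq symbol, 5679 an older synonym, 8919 kept the file's name and 33 had become dates or numbers. Days 12 and 18 were set against days 2 and 4 by lmFit and eBayes over 11275 genes, with Benjamini-Hochberg adjustment over all of them, in code tested on simulated data. No slide or scan batch could be examined. "Not detected" means a detection p of 0.01 or more, and "at least" folds use the lowest detected signal of an array. A gene detected in 1 pair alone entered through that pair, so the filter largely set the sign of its difference. Genes were named where they had the 15 widest gaps each way, lay in a list of key genes, were among the 5 largest differences of a list, had a within-pair range above a 2-fold difference (8 each way), or had day 7 farthest outside the 4 days (6 each way). Other list members named were chosen after their values were seen. Members and lists were chosen with earlier results of these data known. Promoter letters were counted with Python 3.11.15, pandas 2.3.3 and numpy 2.4.6, and figures drawn with matplotlib 3.10.9. Normalization, scaling, background, offset, detection filter, probe rule, variance model, fold and the days included were varied. Some listed genes are not reported here.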

Additional observations from a re-analysis of the deposited data

How the results depend on the processing

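The 132 named genes that passed the test kept their sign with each day left out, which was fixed in advance. Their differences exceeded both within-pair differences, so leaving out a day could not reverse them. Under all 6 other normalizations the 132 genes also kept their sign, and 92 of them passed under all 6. With day 2, 4, 12 or 18 left out, 64, 96, 79 or 20 of them still passed. Of the 160 named genes that did not pass, 10 changed sign under at least 1 normalization, and 41 of 51 lists kept the sign of their median. With T cell identity scaling, 302 genes were called higher and 1251 lower, and 177 and 553 were separated. Taking the mean of a gene's probes called 334 higher and 237 lower. Without background correction, 289 genes were called lower, and 225 higher and 163 lower were separated. Over the 8496 genes detected on all 4 arrays, 264 were called lower and 158 separated lower. Leaving out each day gave 17 to 260 genes called higher, 23 to 334 lower, 494 to 714 separated higher and 379 to 602 separated lower. A 1.5-fold limit separated 881 higher and 672 lower, and a 4-fold limit 87 and 116. A slope on log2 day over days 2 to 18 called 536 higher and 493 lower, 650 of them among the 1046. The deposited normalized values called 569 higher and 449 lower. The shares of higher among called genes were 56.6% as reported, 65.6% with reference gene scaling (719 higher, 377 lower), 43.3% with median scaling and 19.4% with T cell identity scaling. Causes of these shifts were not tested, except that fewer arrays or genes entered where stated. No paired analysis was possible because each day is 1 sample and no numbers are shared between the groups. With 1 array a day, a gene near background has only a bound.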

Other observations

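Some genes differed by at least 2-fold between the pair means while 1 pair spread even wider. Ctsg, the granule protease cathepsin G, gave 8.28 and 12.73 on days 12 and 18, against 9.37 and 7.47 on days 2 and 4 (adjusted p = 0.397). Prtn3, proteinase 3 of immature granulocytes, gave 4.92 and 4.20 on days 12 and 18, against 9.07 and 5.67 on days 2 and 4, bright at day 2 and at 10.53 on day 0. Fam20a, a secretory pathway pseudokinase, gave 9.66 and 10.24 on days 12 and 18, against 5.25 and 8.46 on days 2 and 4 (adjusted p = 0.119). Serpinf1, a secreted serpin, gave 6.89 and 4.48 on days 12 and 18, against 7.06 and 10.16 on days 2 and 4 (adjusted p = 0.189), and Cd55, a complement regulator, gave 5.92 and 8.38 on days 12 and 18, against 5.03 and 5.59 on days 2 and 4 (adjusted p = 0.199). None of these 5 genes passed the test by limma.

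Of 12 tested mast cell and basophil genes, 5 had positive and 7 negative late minus early differences (median -0.31). Cpa3, a mast cell carboxypeptidase, gave 11.10 and 8.62 on days 12 and 18, against 7.61 and 8.81 on days 2 and 4, with 11.75 at day 7. Cma1, a chymase, gave 9.40 and 6.73 on days 12 and 18, against 5.44 and 6.79 on days 2 and 4, with 9.31 at day 7, and the IgE receptor chain gene Fcer1a gave 10.08 and 7.67 on days 12 and 18, against 7.38 and 8.53 on days 2 and 4, with 11.13 at day 7. Kit, the receptor of a mast cell growth factor, gave 7.01 and 8.35 on days 12 and 18, against 9.45 and 8.25 on days 2 and 4, with 7.44 at day 7, and the transcription factor gene Gata2 gave 7.18 and 5.25 on days 12 and 18, against 8.11 and 8.03 on days 2 and 4, with 8.52 at day 7. The 12 listed genes summed to 7421.3 at day 7. Only Hdc, histidine decarboxylase, passed the test among them, lower late at 6.15 and 5.42 on days 12 and 18, against 8.43 and 8.24 on days 2 and 4 (adjusted p = 0.0114).

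Other genes had day 7 outside the range of the 4 days. Ecm1, extracellular matrix protein 1, was 12.77 at day 7, beside 10.31 and 9.55 on days 12 and 18, against 7.89 and 11.16 on days 2 and 4. Ccl5, a chemokine of activated T cells, was 7.07 at day 7, beside 8.82 and 11.19 on days 12 and 18, against 9.64 and 8.43 on days 2 and 4, and Rgs16, a regulator of G protein signalling, was 4.83 and undetected at day 7, beside 7.37 and 9.38 on days 12 and 18, against 7.18 and 7.11 on days 2 and 4.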
